A study of Homo sapiens with 2 samples.

Results

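The 44 genes described here act at the G1/S transition and in DNA replication, and were read in a vincristine-resistant and a parental colon cancer line. They were chosen by gene symbol from the annotation of the array, out of 20046 named genes, and had 67 of the 30113 probes that carry a single symbol. Total RNA of 2 cultures was hybridised to Illumina bead arrays, 1 array per line and no replicate. The parental line, HCT-8, was established from a human colon cancer. HCT-8/V is its counterpart resistant to vincristine, a vinca drug that keeps tubulin from forming the mitotic spindle. By the labels, cells grew in RPMI with bovine serum, and each line had received pcDNA3.1-Twist, a plasmid that expresses the transcription factor Twist from a viral promoter, 48 h before RNA was taken. No array without the plasmid was analysed here, so line is the one contrast, and the treatment text is the same for each, with neither marked as a control. The labels do not say how the resistant line was derived or kept, nor whether it is a single clone.

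Cells enter S phase when cyclin E with CDK2 completes the release of E2F factors from the retinoblastoma proteins, and E2F then raises the transcripts of many replication genes. Origins are licensed in G1, when ORC, CDC6 and CDT1 load the MCM2-7 helicase on DNA. CDC45 and GINS then turn the loaded MCM2-7 ring into the active helicase, and polymerases, clamp, clamp loader and ligase copy the strands.

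The sequence around the start of these genes was looked at first, because E2F sites there are the textbook feature of the group. RefSeq windows (GRCh38.p14, 250 bases before to 50 after an annotated start) were matched for 37 of the 44 genes. Those without one in the table used were CCNE2, GINS4, MCM4, MCM5, POLD3, RPA2 and RPA3. The E2F consensus was searched as TTTCCCGC, TTTCGCGC, TTTGCCGC or TTTGGCGC on either strand, and it was found for 21 of the 37 genes (56.8%). The same letters were found for 3.99% of all 27305 genes with such windows, and for 6.35% of the 10815 of them that read above the median of an array in at least 1 line. Several windows of a gene were counted as 1, and matches on both strands can overlap. CCAAT was found for 59.5% of the 37 genes and for 43.5% of those read above the median, and the GC box GGGCGG for 75.7% and 71.8%. The E2F letters were found for 7 of 9 licensing genes and 3 of 4 G1/S regulators with a window, and for neither ribonucleotide reductase gene. Of all 29 matches, with overlapping ones counted apart, 22 began within 100 bases of the start. That share was not computed over all genes, so it cannot be read as particular to this group. A match describes these letters only and is not evidence of binding.

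Of the windows with a match, 4 are printed, a pair from genes that read higher in HCT-8/V (MCM6, POLA2) and a pair from genes that read lower (MCM3, LIG1). Capitals mark the E2F letters, and where matches on opposite strands overlap, as they do at both places in MCM6, the capitals run through both. Each is from GRCh38.p14 and reads 5′ to 3′ along the gene's own strand.
MCM6 (chr2:135876394-135876693, minus strand): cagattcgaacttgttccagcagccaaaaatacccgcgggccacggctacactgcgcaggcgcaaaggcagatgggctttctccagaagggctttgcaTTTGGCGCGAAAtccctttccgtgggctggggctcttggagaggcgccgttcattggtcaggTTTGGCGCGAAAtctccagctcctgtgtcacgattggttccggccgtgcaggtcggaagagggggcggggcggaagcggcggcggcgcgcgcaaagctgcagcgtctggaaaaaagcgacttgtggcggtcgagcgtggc
POLA2 (chr11:65261712-65262011, plus strand): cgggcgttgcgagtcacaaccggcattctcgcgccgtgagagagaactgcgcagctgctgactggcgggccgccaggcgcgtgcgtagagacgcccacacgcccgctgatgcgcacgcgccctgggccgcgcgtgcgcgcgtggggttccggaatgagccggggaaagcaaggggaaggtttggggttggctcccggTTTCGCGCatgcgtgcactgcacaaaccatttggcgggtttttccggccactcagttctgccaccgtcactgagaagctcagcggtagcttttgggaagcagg
MCM3 (chr6:52284693-52284992, minus strand): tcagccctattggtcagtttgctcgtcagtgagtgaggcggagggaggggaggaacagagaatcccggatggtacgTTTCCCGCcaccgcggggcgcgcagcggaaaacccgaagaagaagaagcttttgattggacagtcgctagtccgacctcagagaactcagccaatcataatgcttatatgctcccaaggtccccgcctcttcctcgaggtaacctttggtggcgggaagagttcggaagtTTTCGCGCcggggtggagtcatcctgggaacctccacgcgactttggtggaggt
LIG1 (chr19:48170295-48170594, minus strand): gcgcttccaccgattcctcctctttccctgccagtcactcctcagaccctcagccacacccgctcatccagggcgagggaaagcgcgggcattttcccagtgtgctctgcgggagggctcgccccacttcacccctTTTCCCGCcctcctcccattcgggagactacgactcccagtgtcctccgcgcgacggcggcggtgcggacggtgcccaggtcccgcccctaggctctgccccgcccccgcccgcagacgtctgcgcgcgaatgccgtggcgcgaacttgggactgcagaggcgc

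The deposited values were intensities on a linear scale. Values below 0 and nearly identical sorted intensities point to background subtraction and matching in distribution before deposit, which no source states. After such matching a shift of most genes one way would not be visible. The number of arrays limits the precision, and no test of a difference was possible. A floor was set at the median of each array, 12.4 on both, and differences are log2 of HCT-8/V minus log2 of HCT-8 after raising lower values to it. A higher floor, at the 75th percentile (81.3 on both arrays), separates bright from dim probes. The label of a colon line was checked against markers. Of 13 colon epithelium genes with a probe, 7 were under the floor on both arrays, among them CDX1, CDX2, VIL1, KRT20 and CDH1. KRT8 (2199 in the parental and 2283 in the resistant line) and KRT18 (445 and 560) were bright, and EPCAM read 117 and 79.97. Of 8 fibroblast genes 6 were above the floor, 4 higher and 2 lower in HCT-8/V, with DCN at 625 and 854, PDGFRB at 149 and 218 and COL3A1 at 73.1 and 55.0. Summed over each list, with values below 0 taken as 0, the colon list read 2898 and 3063, the fibroblast list 941 and 1260, the endothelium list 139 and 131, and the leukocyte list 72.99 and 73.2. Of 6 endothelium genes 4 were above the floor, 2 higher and 2 lower, with TEK at 99.7 and 85.8 and PECAM1 at 34.2 and 14.5, while CDH5 and KDR were under it on both arrays. Of 5 leukocyte genes with a probe 2 were above the floor on the brightest probe. Both were higher in HCT-8/V, CD14 at 35.6 and 42.4 and ITGAM at 12.9 and 13.3. PTPRC, the defining leukocyte marker, was under the floor on both arrays. Whether these differences play a part in the values below was not tested.

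Read on the brightest probe of each gene, replication genes were close to equal in the 2 lines. CCNE2 was under the floor on both arrays, and the other 43 genes were above it on both. Of these, 27 (62.8%) were higher in HCT-8/V and 16 lower, where 52.8% of all 13763 genes above the floor were higher and 47.1% lower. Their median log2 difference was 0.07, beside 0.03 over all genes. The share less than 1.2-fold apart was also 27 of 43 (62.8%), against 44.4% of all genes. Most of these genes are bright, and among the 38 above the higher floor on both arrays 23 (60.5%) were that close, where 58.8% of 7355 equally filtered genes were. Of the same 38, 23 were higher and 15 lower, beside 53% and 46.9% of the 7355, and the SD of their log2 differences was 0.32 against 0.34. The spread of the group was thus near that of other bright genes. In bulk RNA, fewer cells in a phase and less RNA per cell cannot be told apart.

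At a fold of 1.5, CCNE1 and PRIM2 were higher (2 of 43 genes) and RRM2 was lower (1 of 43). Of all genes above the floor 12.8% were higher by as much and 11.2% lower. Among genes above the higher floor on both arrays, 1 of 38 in the group was higher and 1 lower. Of the 7355 genes filtered alike, 4.87% and 3.73% were. No gene of the group differed by 2-fold on its brightest probe, which 4.24% of all genes did upward and 3.77% downward. POLD1 and POLD3 lay just short of 1.5-fold, in opposite directions. At 1.3-fold, 7 of 43 were higher and 3 lower, where 22.4% and 18.9% of all genes were. The 2-fold and 1.3-fold shares are over all genes, dim ones included, and bright genes were not counted apart at those folds.

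**Figure D1:**
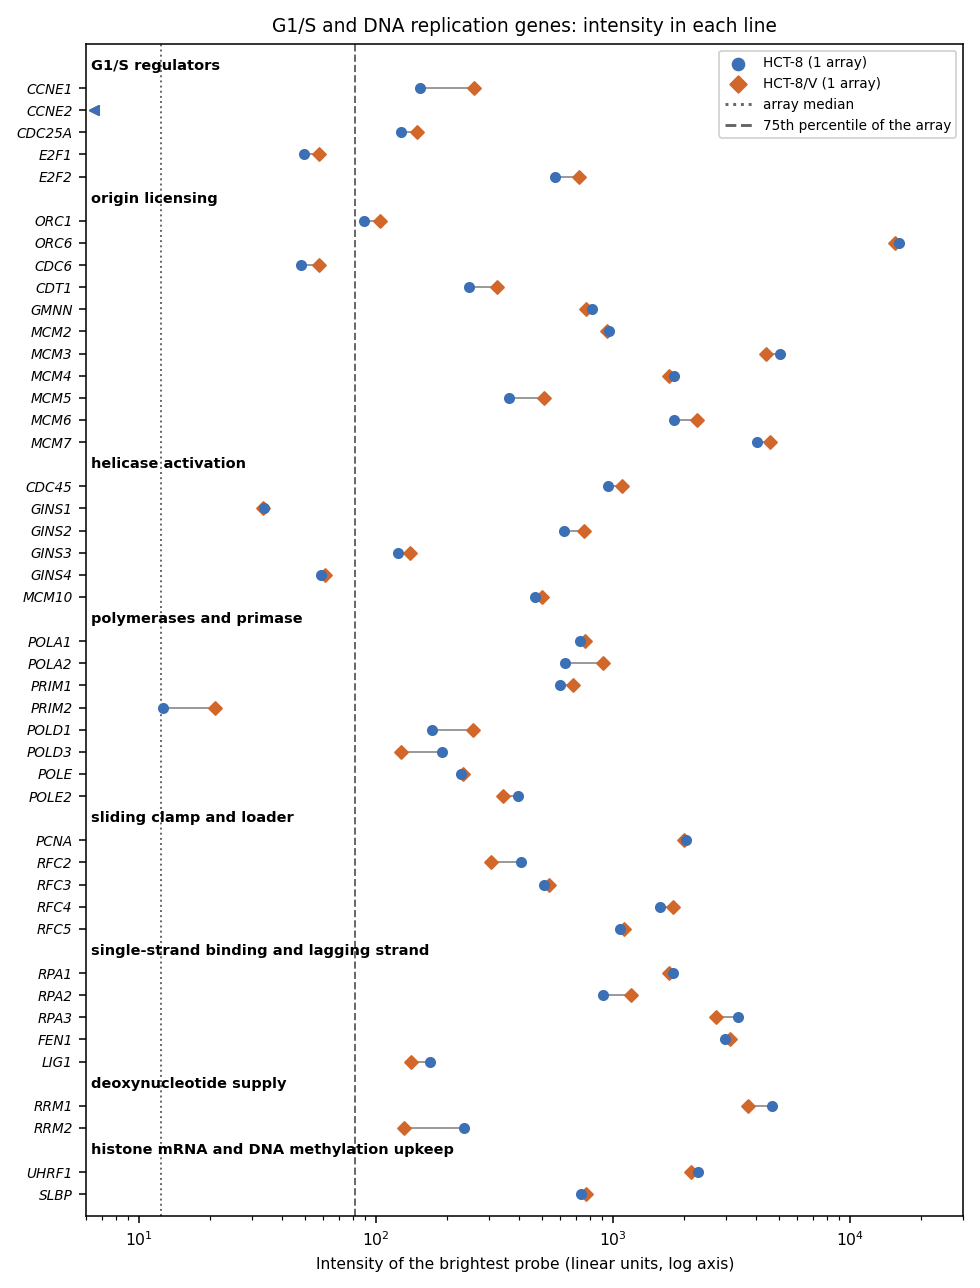
Intensity of the brightest probe of each of the 44 genes on the HCT-8 array (circles) and the HCT-8/V array (diamonds), on a log axis, by role. Most pairs nearly touch, the widest bright pairs are CCNE1 and RRM2, and the triangle at the left edge marks CCNE2, which was below 0 on both arrays.

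On the brightest probe, the G1/S regulators that could be read were all higher in HCT-8/V, from 1.16-fold to 1.69-fold. That is 4 of 4 genes, beside 52.8% of all genes. The counts by role here and below rest on few genes, some of them nearly equal in both lines. CCNE1 encodes cyclin E1, the activator of CDK2 at the G1/S boundary, and its brightest probe read 153 in the parental and 259 in the resistant line, 1.69-fold higher. Its other probe went the opposite way, at 19.3 in the parental and 5.44 in the resistant line, at least 1.56-fold lower, and the mean of both was a log2 difference of 0.06. The gene for the related cyclin E2, CCNE2, read -15.9 and -20.9 and has no usable value. Cyclin E1 was therefore the one E-type cyclin seen on these arrays, and its probes do not give 1 direction. E2F2, an activator E2F, read 567 and 717 (1.26-fold higher). E2F1, the best known activator of this family, was dim, at 49.5 and 57.4. CDC25A, the phosphatase that removes the inhibitory phosphate from CDK2, read 127 and 149 on its brightest probe and 36.1 and 27.2 on the other.

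Origin licensing genes were divided, with 6 of 11 higher, beside 52.8% of all genes. They ranged from 1.15-fold lower to 1.40-fold higher. ORC1, the largest subunit of the origin recognition complex, read 89.3 in the parental and 104 in the resistant line. CDC6, the loader that joins ORC in G1, was dim at 48.5 and 57.6. CDT1, which brings the MCM ring to ORC, read 246 and 324, 1.31-fold higher. GMNN encodes geminin, the inhibitor of CDT1, and read 814 and 771. The inhibitor was thus near equal where CDT1 was somewhat higher. ORC6, the smallest ORC subunit, had the most extreme reading of the group, at 16121 and 15498 on one probe, while its other probe read 363 and 260. Both ORC6 probes were lower in HCT-8/V, by 1.04-fold and 1.40-fold, and nothing in the files shows which of them reads ORC6 alone.

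Of the 6 subunits of the MCM2-7 ring, which work as one complex, 3 read higher and 3 lower on the brightest probe. Of all genes 52.8% were higher and 47.1% lower. MCM2 and MCM4, among the lower ones, were near equal in both lines. MCM5 was the highest of them relative to HCT-8, at 364 in the parental and 510 in the resistant line (1.40-fold). MCM6 read 1805 and 2252 (1.25-fold), and MCM7 read 4048 and 4599 on its brightest probe (1.14-fold). These 3 are the subunits that read higher. MCM2 was flat at 966 and 945, and so was MCM4 at 1802 and 1725, with its second probe at 548 and 471. MCM3 was lower on both of its probes, which read 5081 and 4426 (1.15-fold lower) and 1609 and 1069 (1.51-fold lower). MCM7 was split, since its other probes read 184 and 122 (1.51-fold lower) and 26.4 and 23.2.

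Genes of helicase activation were close to equal, with 5 of 6 higher, beside 52.8% of all genes. The widest was GINS2, at 624 in the parental and 756 in the resistant line (1.21-fold). The other GINS subunits, which form a tetramer with GINS2, read 33.7 and 33.5 for GINS1, 124 and 139 for GINS3 and 58.8 and 61.2 for GINS4. CDC45, which completes the active helicase, read 957 and 1089. MCM10, which binds the helicase as forks start, read 468 and 502 on its brightest probe but 104 and 74.1 on the other.

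DNA polymerase and primase genes were higher for 6 of 8, beside 52.8% of all genes. They had the widest range of any role, from 1.49-fold lower to 1.67-fold higher. All 4 subunits of polymerase alpha-primase, the enzyme that lays down primers, read higher on the brightest probe. POLA2, its regulatory subunit, read 629 in the parental and 904 in the resistant line, 1.44-fold higher. POLA1, its catalytic subunit, read 727 and 759, with its other probe at 45.9 and 33.7. PRIM1, the catalytic primase subunit, had probes that gave 1 direction, at 598 and 676 and at 539 and 638. PRIM2, the large primase subunit, was 1.67-fold higher but read only 12.6 and 21.0, just above the floor. Both PRIM2 values lay above the floor, so the floor did not alter them. In the setting with no floor, 45.98 was added to every value before log2. With that offset the log2 difference of PRIM2 was 0.19 in place of 0.74. POLD1, the catalytic subunit of lagging-strand polymerase delta, read 172 and 257 (1.49-fold higher). POLD3, an accessory subunit of the same enzyme, read 189 and 127 on its brightest probe (1.49-fold lower) and 14.2 and 36.3 on a dim one (2.57-fold higher), which turned their mean to a log2 difference of 0.39. The leading-strand polymerase gene POLE was flat at 227 and 234, and its partner POLE2 read 398 and 344. On the brightest probe POLD1 and POLD3 thus read in opposite directions, while POLE was near equal and POLE2 lower.

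**Figure D2:**
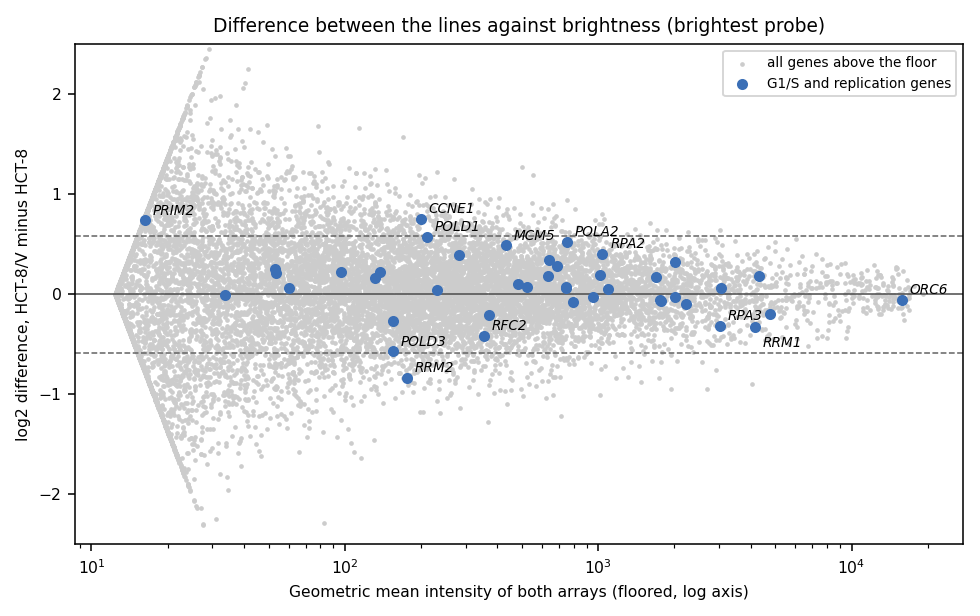
Log2 difference (HCT-8/V minus HCT-8) of the brightest probe against the geometric mean intensity of both arrays, for all 13763 genes above the floor (grey, 3 beyond the vertical range of 2.5 not drawn) and for the 43 replication genes above it (blue). Dashed lines mark 1.5-fold, beyond which lie CCNE1, PRIM2 and RRM2.

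The sliding clamp PCNA, which tethers polymerases to DNA, was bright and flat, at 2025 in the parental and 1987 in the resistant line. A second PCNA probe read 68.8 and 121 (1.76-fold higher), and its dimmest was under the floor on both arrays. The clamp loader subunits read higher for 3 of 4 genes on the brightest probe, beside 52.8% of all genes. RFC2 was the exception, at 409 and 307 (1.33-fold lower), with a second probe at 87.2 and 102. RFC3 read 510 and 537 on its brightest probe, but its others read 345 and 228 (1.51-fold lower) and 45.1 and 32.2. RFC4 had probes of nearly equal brightness that went opposite ways, at 1585 and 1787 and at 1597 and 1524. RFC5 read 1073 and 1110, and its other probe lay at the floor, at 14.8 and 10.9. The loader genes thus gave no direction that all their probes share.

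Of the genes for single-strand binding and lagging-strand work, 2 of 5 were higher, beside 52.8% of all genes. RPA1, the large subunit of the single-strand binding protein RPA, had 3 probes that were all slightly lower in HCT-8/V, at 1789 in the parental and 1716 in the resistant line, 660 and 582, and 539 and 501. RPA2 read 904 and 1194 (1.32-fold higher), while RPA3 read 3366 and 2710 (1.24-fold lower). Of the 3 subunits of this trimer, RPA2 thus read higher and RPA3 lower, with RPA1 only slightly lower. FEN1, the nuclease that trims Okazaki flaps, read 2978 and 3102 on its brightest probe and 779 and 535 (1.46-fold lower) on the other. LIG1, the ligase that seals the fragments, read 170 and 141 (log2 -0.26).

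Both ribonucleotide reductase genes, which supply deoxynucleotides, were lower in HCT-8/V, beside 47.1% of all genes. RRM2, the regulated small subunit that limits the enzyme in S phase, read 236 in the parental and 132 in the resistant line, 1.79-fold lower, the widest difference of any brightest probe here. RRM1, the large subunit, read 4676 and 3714 (1.26-fold lower). Each has 1 probe, so the direction has no second reading. Among bright genes (above the higher floor on both arrays) 3.73% were lower by 1.5-fold or more, as RRM2 was, and 4.87% higher, as CCNE1 was. UHRF1, which recruits the maintenance DNA methyltransferase to replicated DNA, read 2286 and 2140, with a dim second probe at 24.97 and 10.1 (at least 2.01-fold lower). SLBP, the binding protein of replication-dependent histone mRNA, was slightly higher on both probes, at 731 and 768 and at 643 and 825.

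How far a second probe of the same gene gave the same direction could be checked for 19 genes. All of these had at least 2 probes above the floor, which here and below means on at least 1 array. All probes shared a direction in 7 of the 19 (36.8%), beside 48.5% of the 3785 genes with several such probes. PRIM1 and SLBP were higher on every probe (2 of 19, beside 20.7% of all such genes). MCM3, MCM4, ORC6, RPA1 and UHRF1 were lower on every probe (5 of 19, beside 27.8%). In the other 12, probes were split, and in 9 of these the brightest probe was the higher one and a dimmer probe the lower, as in 56.9% of 1949 split genes over the table. Of the 12 split genes 7 had all probes above the floor annotated to a single transcript, so a difference between annotated isoforms is not recorded for them.

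Second brightest probes leaned low as a group. Of 19 above the floor, 14 (73.7%) were lower in HCT-8/V, with a median log2 difference of -0.41. Those of CCNE1, RFC5 and UHRF1 were above it on the HCT-8 array alone, so they could only be counted as lower. Second probes lean the same way over all genes, though less in these counts, with 56.9% of 3803 lower and a median of -0.08. Among second probes above the higher floor on both arrays, 8 of 11 were lower (median -0.22), beside 59.2% of 1535 (median -0.08). The 3 remaining, dimmest probes above the floor were lower as well. With every probe counted on its own, 32 were higher and 33 lower, a median of -0.01, against 50.1% of 18739 probes higher over the table. At that level 4 probes were 1.5-fold higher and 6 lower, where 12.6% and 13.1% of all probes, dim ones included, were. At 2-fold the count was 1 each way (POLD3 and UHRF1), where 4.15% and 4.4% of all probes were. Averaged over all its probes per gene, 22 of 43 were higher (51.2%, median 0.04), beside 51.1% of all genes. For the 24 genes above the floor that have a single probe, 16 were higher and 8 lower, with a median of 0.20 and no second reading, while over all single-probe genes 54.3% were higher.

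**Figure D3:**
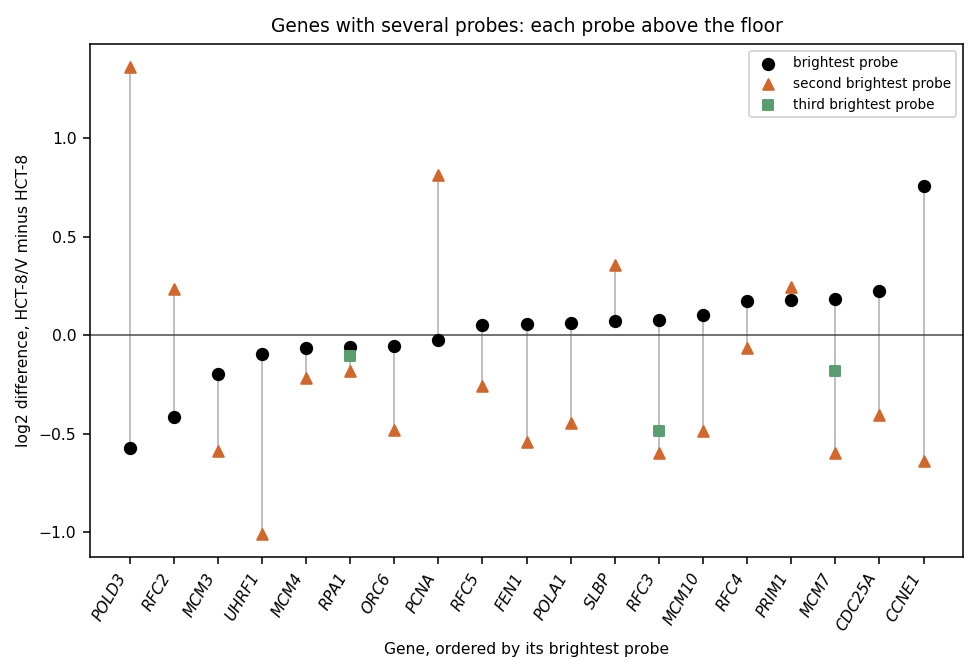
Log2 difference (HCT-8/V minus HCT-8) of each probe above the floor for the 19 genes with several such probes, ordered by the brightest probe (circles), with the second brightest (triangles) and dimmest (squares) probes on the same line. In 12 of 19 genes the line crosses 0, and 14 of 19 triangles lie below it.

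**Figure D4:**
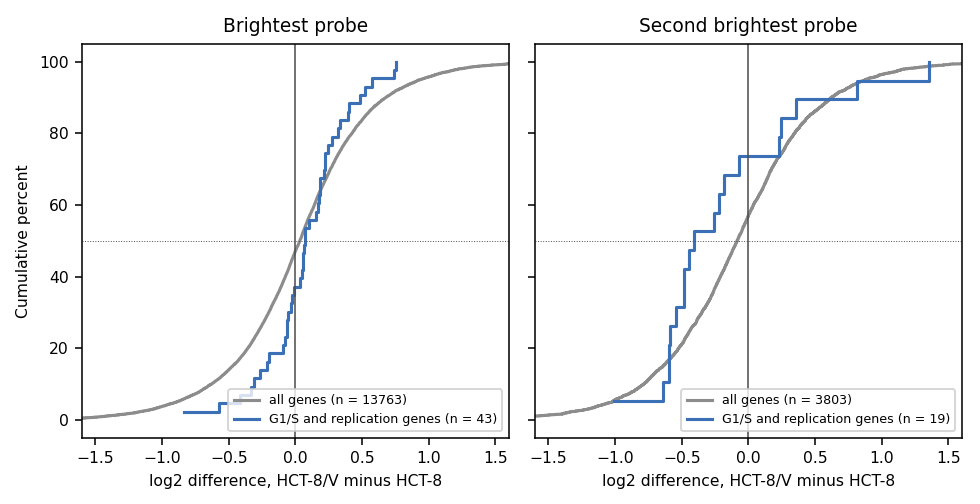
Cumulative percent of log2 differences for replication genes (blue) and all genes (grey), on the brightest probe (left, 43 and 13763 genes) and the second brightest (right, 19 and 3803 genes). The blue curve crosses 50% at 0.07 on the left and at -0.41 on the right, the grey one at 0.03 and -0.08.

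Genes with and without the E2F letters both read in either direction on the brightest probe. Of the 21 genes with a match 13 were higher and 8 lower (median 0.08), and of the 16 with a window but no match 11 were higher and 5 lower (median 0.09). Over all genes above the floor 52.8% were higher, with a median of 0.03. MCM6 and POLA2, whose windows are printed above, were higher and MCM3 and LIG1 lower. CCNE1 and RRM2, the bright genes past 1.5-fold, had no match to these letters in their windows.

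Other genes of the pathway, taken from a list of 62 that are not in the group, also read in both directions. Of 57 above the floor 33 were higher and 24 lower, with a median of 0.07, and 13 of 18 second probes were lower. Over all genes above the floor 52.8% were higher, with a median of 0.03, and 56.9% of second probes were lower. Past 1.5-fold, 3 were higher and 3 lower, where 12.8% and 11.2% of all genes were. TICRR, which helps fire origins, was the one that was bright, at 134 in the parental and 219 in the resistant line (1.63-fold higher). The other 5 were dim and were chosen for naming after their values were seen. MYBL2, an activator of late cell cycle genes, read 0.434 and 39.9 (at least 3.21-fold higher), and E2F8, an atypical repressor E2F, 15.0 and 26.3. Lower were RRM2B, the p53-induced reductase subunit, at 54.1 and 29.99, DBF4, the activator of the origin-firing kinase CDC7, at 25.6 and 14.9, and ORC4 at 29.3 and 17.5.

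G2/M and mitosis genes, which follow replication in the cycle, stood at 15 higher and 25 lower of 40, with a median of -0.12. Of their 18 second probes 15 were lower. Over all genes above the floor 47.1% were lower, with a median of 0.03, and 56.9% of second probes were lower. None was 1.5-fold higher and 6 were 1.5-fold lower, where 12.8% and 11.2% of all genes, dim ones included, were. Among genes above the higher floor on both arrays, 4.87% and 3.73% were. The bright ones were ANLN (1359 in the parental and 828 in the resistant line), NUF2 (367 and 222), TPX2 (924 and 584) and MAD2L1 (770 and 512). MKI67 (68.8 and 38.4) and UBE2S (26.4 and 14.5) were dim and were named after their values were seen. The second MAD2L1 probe was also lower, at 147 and 121. NUF2 was split, since its other probes read 60.8 and 50.6, and -3.84 and 19.2 (at least 1.54-fold higher). The mean of the NUF2 probes was a log2 difference of -0.12. The difference between the lists could not be tested with 1 array per line.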

How the data were processed

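Per the labels' protocols, biotinylated cRNA was made from total RNA with a MessageAmp kit for Illumina arrays, 1 array per line. The authors deposited 1 intensity per probe for 47323 probes; background correction, scaling, software and detection values are not stated in any source at hand. Sorted intensities of both arrays differed by at most 0.369, and 29.2% were below 0. Symbols came from the platform annotation, updated through gene IDs to RefSeq (GRCh38.p14). The 17210 probes without a single symbol were left out. Values under an array's median were raised to it before log2, and each gene was read on its brightest probe (mean of both arrays). Folds against a value under the floor are lower bounds. Python 3.11.15 with pandas 2.3.3 and statsmodels 0.14.6 was used, and the gene step was tested on simulated data. The text names all 44 genes, and genes of other lists that were 1.5-fold apart and above the higher floor on at least 1 array. Dim genes of those lists past 1.5-fold (7 in all), and markers given as examples, were named after their values were seen. The genes and lists were chosen with earlier results of these data known. With 1 array per line no test was run. Alternatives covered the floor, the probe used, centring, a loess trend (span 0.3), the fold, and mean for median. In the setting with no floor, 45.98 was added to every value before log2, which shrinks differences between dim values.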

Additional observations from a re-analysis of the deposited data

How the results depend on the processing

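With 1 array per line, no difference here has a replicate check, and dim probes (under the higher floor) carry the widest scatter. Median centring, the loess trend, no floor and the higher floor kept the share of replication genes that were higher between 60.5% and 62.8%, and the median log2 difference between 0.04 and 0.07. The mean over all probes brought the share to 51.2%, beside 51.1% of all genes. The second brightest probe turned the direction, to 26.3% higher with a median of -0.41 for these genes and to 27.8% higher for the other pathway genes, and turned CCNE1 to -0.64. G2/M genes, already mostly lower, went from 37.5% to 16.7% higher. Chosen after seeing the data, counting every probe gave 49.2% higher and a median of -0.0095, and genes with 1 probe gave a median of 0.20. The count 1.5-fold higher, 2 as reported, was 1 with the higher floor, no floor, the mean of probes, bright probes alone and single-probe genes alone, 4 over every probe and 7 at a fold of 1.3. The count lower, 1 as reported, was 2 with centring or loess, 5 with second probes, 6 over every probe and 3 at a fold of 1.3. At 2-fold, second probes and every probe each gave 1 higher and 1 lower, where the brightest probes gave 0 of each. The cause of these shifts was not tested. Of single-gene values under these settings, 235 moved by less than 0.34 on the log2 scale (the SD over bright genes), 20 by more, and CCNE1 alone turned among those past 1.5-fold. PRIM2, RRM2, TICRR, ANLN and TPX2 have 1 probe each, so the choice of probe could not turn them. Turning was scored only past 1.5-fold. POLD3, just short of that, went from -0.57 to 1.36 on its second probe and is counted among the 20. Probes shared a direction in 36.8% of genes, in 46.2% at the higher floor. No paired analysis was possible because each line has a single array.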
